A study of Mus musculus with 2 samples.

Results

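The elastic fibre and collagen crosslinking genes described here are 10 genes taken by symbol from the 32285 features of the deposited count tables: Eln, Fbn1, Fbln5, Mfap5, Lox, Loxl1, Loxl2, Plod2, Emilin1 and Emilin2. All 10 were found once among the features. They were followed in single cells from whole mouse uterus, in 2 libraries made with a droplet kit that reads the 3-prime end of transcripts. The control library is a pool of 3 female C57BL/6J mice of genotype Prickle1 f/f, and the other is a pool of 3 Prickle1 f/f MiC mice, called cKO in the series' design text; all were 6 months old, so both groups carry the floxed Prickle1 allele. PRICKLE1 belongs to the planar cell polarity pathway, and the series title places its loss in the myometrium, the muscle layer of the uterus. MiC is not spelled out in the labels, nor the cells it acts in, and the genotype entered there is wild-type for the control and the cKO sample alike.

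Elastin is secreted as a soluble monomer, laid down on a scaffold of fibrillin microfibrils with the help of fibulins and emilins, and made insoluble by lysyl oxidases, which oxidise lysines so that neighbouring chains join. The same oxidases crosslink collagen fibrils, where lysyl hydroxylation by enzymes such as the Plod2 product decides which kind of crosslink forms. In the uterus these fibres lie in the stroma and between the muscle bundles, and they are taken apart and rebuilt through pregnancy and after birth.

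The control library held 45035801 unique molecular identifiers (UMIs, each a counted transcript molecule) and the library labelled cKO 34261441, in 3490 and 3586 cells that passed the filters, with medians of 4953 and 4903 UMIs per cell. Only 6 cell barcodes occurred in both libraries. With 1 library per group there is no test of the groups: every interval below is a 95% interval that covers counting error in these libraries only, not the spread between mice. Prickle1 itself does not check the labels, since it had 96 UMIs in control cells and 265 in the cells of the library labelled cKO, and 14 and 51 in smooth muscle-like cells, where the exact interval of the ratio of levels ran from 0.902 to 3.24. Over all cells that interval ran from 2.78 to 4.51, but the cell make-up differed between the libraries. Epithelium-like cells numbered 1312 in the control library and 109 in the library labelled cKO. The part of this in the ratio over all cells was not tested. Within classes the interval lay above 1 in fibroblast-like, epithelium-like (only 17 and 5 UMIs) and T or NK cell-like cells. In macrophage or monocyte-like and dendritic cell-like cells it included 1. The groups are therefore named by their labels throughout.

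Cells were grouped by clustering without the 10 genes and named from marker genes. The fibroblast-like class, 5 clusters with 5 or 6 of 6 fibroblast markers detected, held 856 control and 1318 cKO cells. The smooth muscle-like class, 2 clusters with 5 of 6 markers detected, held 314 and 681. At the resolution used, 1.0, no cluster was called pericyte or blood endothelium, so vessel walls, a rich source of elastic fibres, are not described as a class of their own. At resolution 2.0 a cluster of 9 control and 28 cKO cells was called blood endothelium. Depth differed between the classes, with medians of 9675 and 10416 UMIs per fibroblast-like cell in the control library and the library labelled cKO against 1892.5 and 2016 per smooth muscle-like cell.

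The 10 genes were read mainly in fibroblast-like cells. These cells gave between 85.0% and 97.5% of all UMIs of each of 9 members in either library, the lowest being Fbln5 in the control library. Emilin2 was the exception, with 46.2% of its control UMIs and 78.7% of its cKO UMIs in fibroblast-like cells. Smooth muscle-like cells gave at most 4.81% of any member's UMIs. These shares depend on class size as well as on level. Of all genes, fibroblast-like cells held 9791053 control and 16463534 cKO UMIs, and smooth muscle-like cells 953072 and 2097638. All cells together held 83.35% of the 45035801 control UMIs and 85.69% of the 34261441 cKO UMIs. A fibroblast-like cell had UMIs of a median of 4 of the 10 genes in the control library and 5 in the library labelled cKO, and 5.37% and 3.87% of these cells had none; epithelium-like cells had a median of 0. At a common depth of 1000 UMIs per cell the mean number of members seen in a fibroblast-like cell was 1.25 and 1.51.

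**Figure D1:**
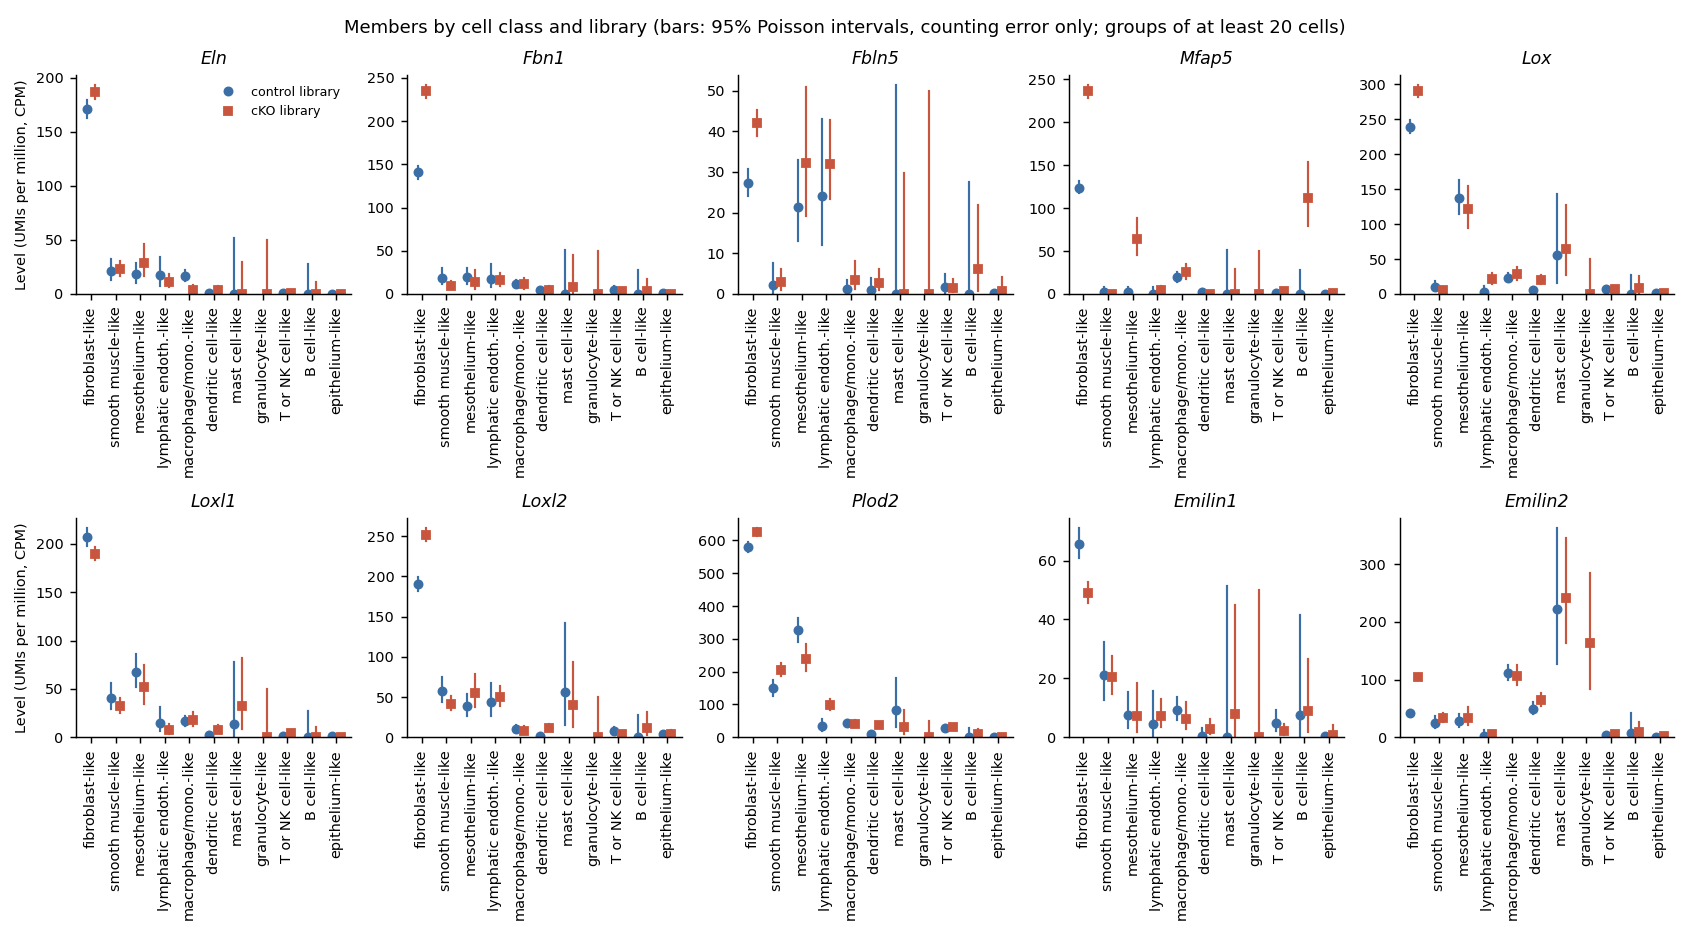
Level of each of the 10 genes in counts per 1000000 UMIs (CPM, linear axis starting at 0, its own scale in each panel) in 11 cell classes, with control as blue circles, cKO as red squares, and bars for 95% Poisson intervals. The fibroblast-like level is the highest drawn in either library for 9 genes, while Emilin2 is as high or higher in macrophage or monocyte-like, mast cell-like and granulocyte-like cells; the Mfap5 point of B cell-like cells in the cKO library rests on 2 cells.

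The first comparison asks how the 10 genes differed between the libraries within fibroblast-like cells. Levels are given as counts per 1000000 UMIs of the class (CPM), and differences as log2 of the cKO over the control level after adding 5 CPM to each. Of the 10 members, 3 were at least 1.5-fold higher on that scale in the library labelled cKO, Emilin2, Mfap5 and Fbn1, and 0 were at least 1.5-fold lower; the same fold was passed upward by 4.97% and downward by 2.40% of the 7831 genes with a mean of at least 10 CPM. The member just inside this fold was Fbn1 (log2 difference 0.71) and the one just outside was Fbln5 (0.54). The median log2 difference of the members was 0.33, beside 0.10 over all genes counted. This picture depends on how the clusters of the class are weighted: with the 4 clusters that could be compared given equal weight, the members' median was -0.0040 and 0 of 10 passed the fold.

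Elastin is the core of the fibre, and the direction of its difference depends on which cells are counted. Eln, which encodes elastin (ENSMUSG00000029675, chr5:134702593-134747323 of GRCm38, minus strand), stood at 171 CPM (interval 163 to 179, 1672 UMIs) in control fibroblast-like cells. Its level in the library labelled cKO was 186 CPM (179.9 to 193, 3069 UMIs). The log2 difference of 0.12 lay close to that of the median gene. With thinned cells it was -0.24, and without cluster 8, which held 73.0% of the control Eln UMIs of the class, it was 0.94. Elastin transcripts were concentrated in few cells: 35.0% of control and 35.8% of cKO fibroblast-like cells had an Eln UMI, and the 10% of cells with the most held 77.4% and 74.0% of the Eln UMIs.

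The microfibril members Fbn1 and Mfap5 were higher in the library labelled cKO. Fbn1 encodes fibrillin-1, the main protein of the microfibril (chr2:125300594-125507993, minus strand), and stood at 141 CPM (134 to 148) in control and 234 CPM (227 to 242) in cKO fibroblast-like cells. That is a ratio of 1.66 with an exact interval from 1.56 to 1.77. Mfap5 encodes a small glycoprotein that binds fibrillin (chr6:122505845-122529290, plus strand), and its level was 124 CPM (117 to 131) and 236 CPM (228 to 243), so that the ratio was 1.90 (1.78 to 2.03). For both genes the intervals of the libraries do not overlap, but the share of all genes for which this holds was not counted. The share of fibroblast-like cells with a UMI went the same way, from 45.0% to 61.7% for Fbn1 and from 25.4% to 45.4% for Mfap5, and after thinning every cell to 1000 UMIs from 8.995% to 16.5% and from 5.96% to 13.7%. In epithelium-like cells, which should lack both genes, the unthinned shares were 0.534% and 0.229% in the control library, at a median depth of 4371.5 UMIs. They were 0% and 0.917% in the library labelled cKO, where 1 of 109 cells had an Mfap5 UMI. After thinning they were 0% for both genes in the control library and again 0% and 0.917% in the library labelled cKO.

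Fbln5 and the emilins join the microfibril to elastin and to the cell surface, and they did not all differ in one direction. Fbln5 encodes fibulin-5, which carries elastin to the microfibril and binds integrins (chr12:101746565-101819055, minus strand), and was the least counted member in these cells with 266 and 690 UMIs. Its level was 27.2 CPM (24 to 30.6) in control and 41.9 CPM (38.8 to 45.2) in cKO cells, and its ratio of 1.54 (1.34 to 1.78) falls under the 1.5-fold mark only through the 5 CPM added to both. Emilin1 and Emilin2 encode related glycoproteins of the elastin and microfibril interface (chr5:30913402-30921277, plus strand, and chr17:71252172-71311978, minus strand), and they differed in opposite directions. Emilin1 stood at 65.7 CPM (60.7 to 71.0) in control and 49.1 CPM (45.8 to 52.6) in cKO cells, so that the ratio was 0.747 (0.673 to 0.830). Emilin2 stood at 42.2 CPM (38.2 to 46.5) and 104 CPM (98.9 to 109), so that the ratio was 2.46 (2.21 to 2.75). Emilin2 thus had the highest and Emilin1 the lowest log2 difference of the 10, at 1.205 and -0.39. Cells with an Emilin2 UMI made up 27.8% of control and 46.9% of cKO fibroblast-like cells. Among epithelium-like cells they made up 1.60% and 2.75%.

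Promoters were taken from the RefSeq table for GRCm38.p6, in which Lox was not looked up. They were found for 4 of the 10 members, each from 250 bases before to 50 bases after a start given by RefSeq. These starts differ from the ends of the GENCODE gene spans given above: the Fbn1, Emilin1 and Emilin2 windows lie inside those spans, and the Fbln5 window lies just before its span. They are shown because they include the members with the highest and the lowest difference between the libraries in fibroblast-like cells, and because the emilin pair, related in sequence and role, can be read side by side. The positions are chr2:125506389-125506688, minus strand, for Fbn1, chr12:101819070-101819369, minus strand, for Fbln5, chr5:30913536-30913835, plus strand, for Emilin1 and chr17:71311507-71311806, minus strand, for Emilin2. RefSeq holds 2 entries each for Fbln5 and Emilin2, and only the one starting nearest the gene's 5-prime end was read. Capitals mark the GC box on either strand, written GGGCGG or, on the other strand, CCGCCC.
Fbn1 promoter: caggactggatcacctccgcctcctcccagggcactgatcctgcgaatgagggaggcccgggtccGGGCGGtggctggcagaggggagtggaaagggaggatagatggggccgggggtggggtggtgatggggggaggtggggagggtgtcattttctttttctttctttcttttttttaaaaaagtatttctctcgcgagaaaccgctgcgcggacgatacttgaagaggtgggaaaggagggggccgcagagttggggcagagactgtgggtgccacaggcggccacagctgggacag
Fbln5 promoter: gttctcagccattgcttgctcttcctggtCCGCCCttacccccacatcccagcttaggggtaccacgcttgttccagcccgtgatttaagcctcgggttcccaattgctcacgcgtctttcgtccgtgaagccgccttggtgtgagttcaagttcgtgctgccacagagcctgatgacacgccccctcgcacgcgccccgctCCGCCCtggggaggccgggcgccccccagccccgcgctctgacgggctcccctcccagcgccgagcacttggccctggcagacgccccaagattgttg
Emilin1 promoter: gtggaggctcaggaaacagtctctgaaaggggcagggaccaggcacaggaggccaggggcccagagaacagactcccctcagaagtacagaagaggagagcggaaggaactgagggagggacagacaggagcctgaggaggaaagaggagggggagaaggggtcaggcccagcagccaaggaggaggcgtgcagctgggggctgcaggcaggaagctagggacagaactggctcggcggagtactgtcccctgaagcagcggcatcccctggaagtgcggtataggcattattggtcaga
Emilin2 promoter: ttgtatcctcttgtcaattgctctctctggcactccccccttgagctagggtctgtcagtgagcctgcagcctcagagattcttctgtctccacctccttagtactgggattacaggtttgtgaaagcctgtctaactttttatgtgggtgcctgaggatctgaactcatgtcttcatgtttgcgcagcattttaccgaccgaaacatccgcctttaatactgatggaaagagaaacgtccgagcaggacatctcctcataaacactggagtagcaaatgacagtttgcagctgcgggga

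The promoters differ in base composition, with 60.3% G and C in Fbn1, 65.7% in Fbln5, 61.7% in Emilin1 and 48.3% in Emilin2. Their CpG dinucleotides number 14, 24, 6 and 7 in the same order. The GC box occurs 1 time in the Fbn1 window and 2 times in the Fbln5 window and in neither emilin window; 35.7% of the 32851 RefSeq promoters of this length hold it. On both strands, none of the 4 windows holds TGANTCA (AP-1, in 7.81% of promoters), TATAAA (the TATA box, in 13.6%) or a CArG box (the serum response factor motif, in 1.63%). No 2 matches overlap. A match or its lack describes these letters only, and the motifs were picked after the expression values were known.

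The 3 lysyl oxidases gave smaller differences in fibroblast-like cells, and not all in one direction. Lox encodes lysyl oxidase itself (chr18:52516067-52529867, minus strand) and stood at 239.7 CPM (230.1 to 249.6) in control and 291 CPM (283 to 299) in cKO cells, so that the ratio was 1.21 (1.16 to 1.28). Loxl1, whose product binds fibulin-5 and is tied to elastic fibres in the pelvic organs (chr9:58287738-58313186, minus strand), stood at 207 CPM (198 to 216) and 189.8 CPM (183 to 197), so that the ratio was 0.917 (0.866 to 0.970). Loxl2, which acts on basement membrane collagen IV among other substrates (chr14:69609068-69695834, plus strand), stood at 191 CPM (182 to 199.7) and 252 CPM (244 to 259.7), so that the ratio was 1.32 (1.25 to 1.39). Their log2 differences were 0.27, -0.12 and 0.39. With the clusters weighted equally the values of Lox and Loxl2 were -0.16 and -0.22, and with cells thinned to 1000 UMIs that of Loxl1 was 0.19, so the direction of these 3 genes depends on the setting. Cells with a UMI of Lox, Loxl1 and Loxl2 made up 60.5%, 54.7% and 59.0% of control and 64.6%, 61.9% and 65.3% of cKO fibroblast-like cells.

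Plod2 encodes the lysyl hydroxylase that acts on the ends of collagen chains (chr9:92542223-92608428, plus strand) and was the most widely seen member, with a UMI in 79.0% of control and 82.9% of cKO fibroblast-like cells. Its level was 581 CPM (566 to 596, 5687 UMIs) in control and 625 CPM (613 to 637, 10285 UMIs) in cKO cells. The ratio of 1.08 (1.04 to 1.11) has the narrowest interval of the 10 and lies near that of the median gene. With sizes scaled by the median of ratios over genes instead of by the class total, the log2 difference of Plod2 changed from 0.10 to -0.0048. Its UMIs were also the most evenly spread, the 10% of fibroblast-like cells with the most holding 42.0% and 40.4% of them.

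**Figure D2:**
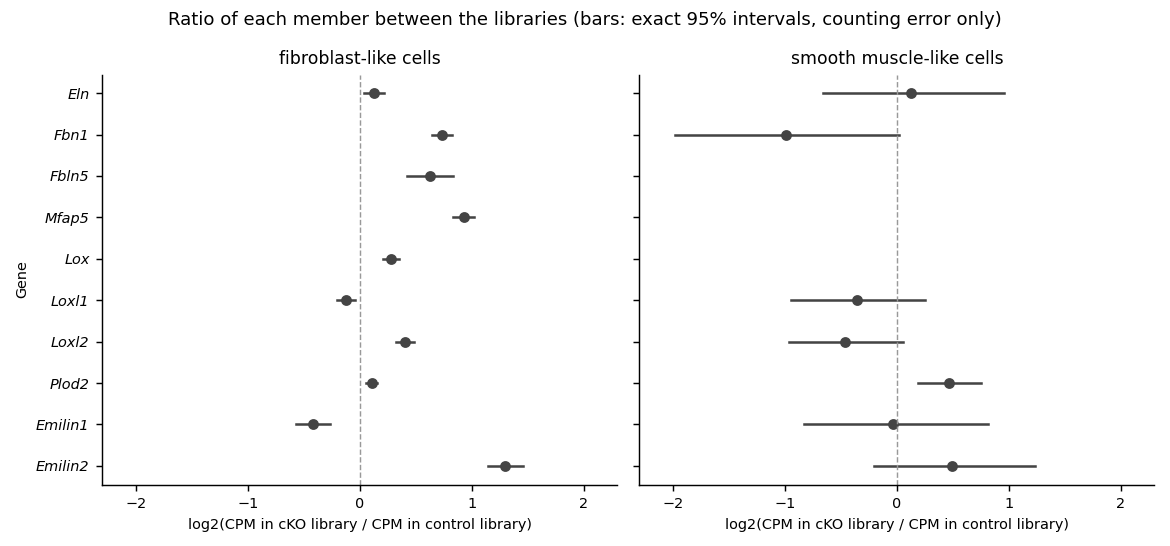
Ratio of the CPM in the cKO library to that in the control library, as log2 without an added constant, for each gene in fibroblast-like cells (left) and in smooth muscle-like cells (right), with exact 95% intervals for counting error. In fibroblast-like cells all 10 intervals lie to 1 side of 0, 8 above and 2 below it. High counts make these intervals narrow, and the share of all genes with an interval off 0 was not counted. The 10 are therefore not set apart from other genes by it. In smooth muscle-like cells 7 genes had a mean of at least 10 CPM and only the Plod2 interval lies off 0.

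The fibroblast-like class mixes 5 clusters whose shares differed between the libraries. Cluster 8, led by Thbs2, Ptx3 and Has2, held 292 control and 543 cKO cells and 53.7% and 47.3% of the class's UMIs. Cluster 9, led by Igfbp3 and Clec3b with Mfap5 among its leading genes, held 223 and 327 cells. Cluster 10, led by Dio2, Aldh1a2 and Col6a4, held 17 control and 229 cKO cells and 2.84% and 28.1% of the class's UMIs. Cluster 16, led by collagen genes with Eln among the first 10, held 216 and 60 cells of low depth, with medians of 1761 and 1586.5 UMIs. Cluster 19, led by Col3a1, Col1a1 and Col1a2, held 108 and 159 cells.

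**Figure D3:**
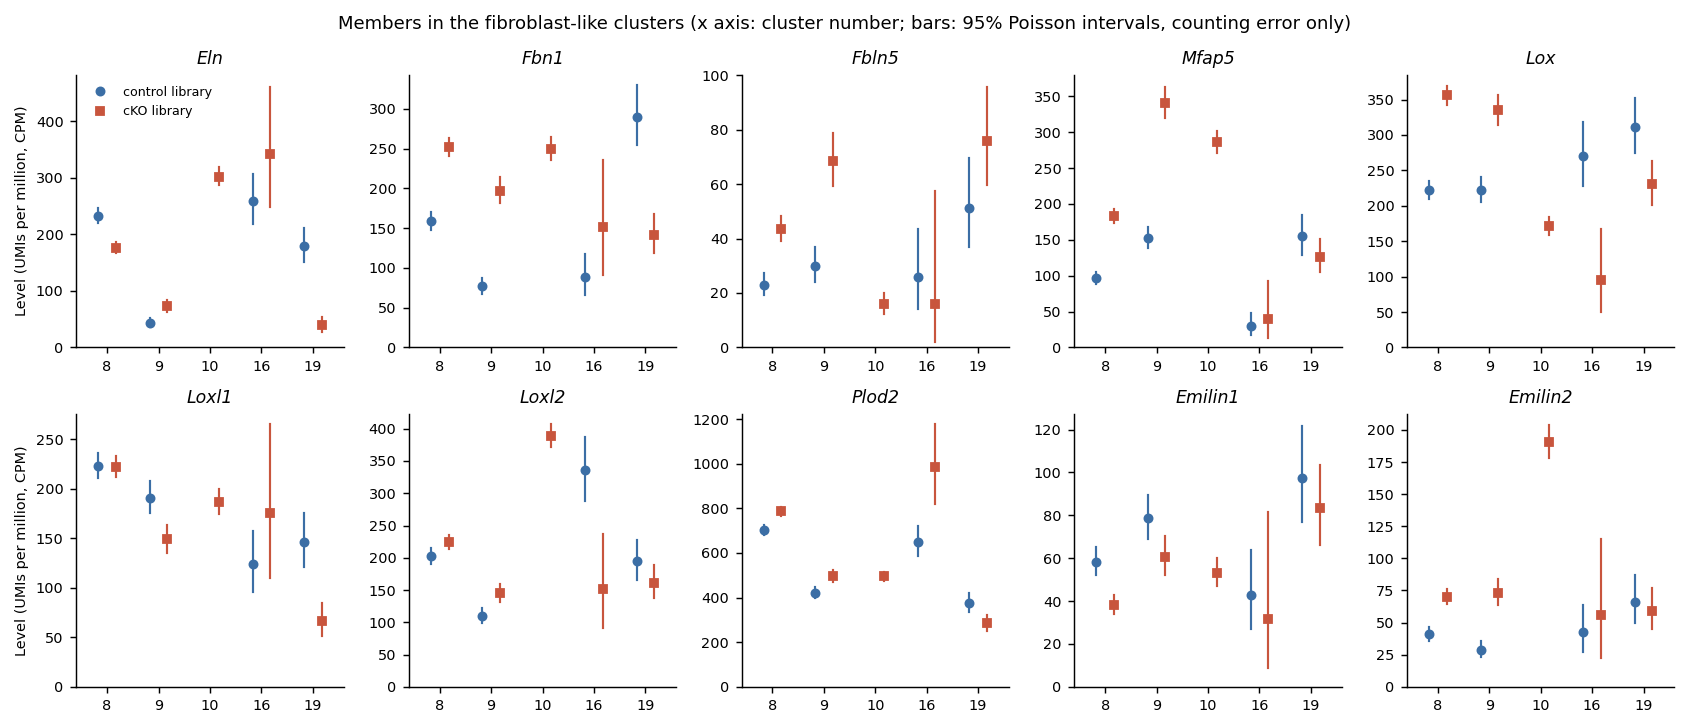
Level of each gene (CPM, linear axis from 0) in the 5 fibroblast-like clusters, with control as blue circles, cKO as red squares, and bars for 95% Poisson intervals; the 17 control cells of cluster 10 are not drawn. Fbn1, Mfap5, Fbln5, Lox and Emilin2 are higher in the cKO library in clusters 8 and 9, Eln and Fbn1 are lower in cluster 19, and cluster 10 is high for Emilin2 and Eln.

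Cluster 10 carried much of the Emilin2, Eln and Loxl2 of the library labelled cKO. Eln stood at 302 CPM there, and 45.5% of the Eln UMIs of cKO fibroblast-like cells came from this cluster, against 2.51% in the control library. Emilin2 stood at 190.4 CPM, and 51.5% of its cKO UMIs came from cluster 10. The share was 43.3% for Loxl2, at 389 CPM, 34.1% for Mfap5, at 286 CPM, and between 22.2% and 30.4% for Plod2, Loxl1, Fbn1 and Emilin1. It was smaller for Fbln5, 10.6%, at a level of 15.8 CPM, and for Lox, 16.5%, at 171 CPM. Without cluster 10 the Eln log2 difference changed from 0.12 to -0.27, and that of Emilin2 from 1.205 to 0.76. The 6 fibroblast markers summed to 5917 CPM in this cluster against 11302 CPM in cluster 8 of the same library. Their part in the results was not tested.

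Of the 4 clusters that held at least 20 cells of both libraries, 2, clusters 8 and 9, had ratio intervals above 1 for Fbn1, Mfap5 and Emilin2. In clusters 8 and 9 the intervals of Fbln5, Lox, Loxl2 and Plod2 lay above 1 as well. The share of all genes for which this holds was not counted. Fbn1 stood at 159 and 252 CPM in cluster 8, at 76.7 and 197 CPM in cluster 9, at 88.9 and 151 CPM in cluster 16, and at 290.1 and 141 CPM in cluster 19 (control first). In cluster 16 these were 48 and 19 UMIs, and the interval of the ratio, 0.944 to 2.95, included 1. The order of the libraries was turned in cluster 19, where the interval of the Fbn1 ratio ran from 0.392 to 0.606. Mfap5 stood at 96.1 and 183 CPM in cluster 8 and at 153 and 341 CPM in cluster 9, with ratio intervals of 1.71 to 2.11 and 2.00 to 2.50. In clusters 16 and 19 the Mfap5 intervals included 1. Emilin2 showed the same layout, with 40.7 and 70.2 CPM in cluster 8, 28.8 and 73.2 CPM in cluster 9, and intervals that include 1 in clusters 16 and 19.

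In the library labelled cKO, Emilin1 was lower in each of the 4 clusters, with log2 differences of -0.55, -0.35, -0.37 and -0.22 in clusters 8, 9, 16 and 19. The interval of its ratio lay under 1 in clusters 8 (0.556 to 0.770) and 9 (0.631 to 0.941) and included 1 in the other two, where 23 and 4 UMIs and 78 and 80 UMIs were counted. Fbln5 was higher in clusters 8, 9 and 19, with log2 differences of 0.79, 1.08 and 0.53, and the interval in cluster 19 began at 0.998. In cluster 16 it had 14 and 2 UMIs.

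Elastin and the oxidases differed in direction between clusters. Eln stood at 232 and 176 CPM in cluster 8, at 43.2 and 72.9 CPM in cluster 9 and at 179 and 39.5 CPM in cluster 19. The cluster 19 value rests on 143 and 38 UMIs, in 42 of 108 control and 31 of 159 cKO cells, with no cell above 18 UMIs. Lox was higher in clusters 8 (222 and 356 CPM) and 9 (223 and 335 CPM) and lower in clusters 16 (270.5 and 95.5 CPM, 146 and 12 UMIs) and 19 (311 and 231 CPM). Loxl1 had nearly equal levels in cluster 8, 223 and 222 CPM, with a ratio interval from 0.922 to 1.07, and was lower in clusters 9 and 19 by log2 differences of -0.35 and -1.08. Loxl2 was higher in clusters 8 and 9 (0.14 and 0.38) and lower in cluster 16 (-1.12). Plod2 was higher in clusters 8, 9 and 16 (0.16, 0.23 and 0.60) and lower in cluster 19 (-0.39).

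Fibroblast markers and depth moved beside these values. The 6 fibroblast markers summed to 21834 CPM in control and 13283 CPM in cKO cells of cluster 19, where the intervals of Eln, Fbn1, Lox, Loxl1 and Plod2 lay below 1 and those of the other members included it, and to 10088 and 11302 CPM in cluster 8 and 10595 and 13113 CPM in cluster 9. Over the whole class they summed to 11052 and 10211 CPM, 2 of 6 higher and 4 lower in the library labelled cKO, with none at 0. All 4 clusters had a lower median depth in the library labelled cKO, for example 17270 and 12748 UMIs per cell in cluster 8. The part of these shifts in the members' values was not tested.

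Smooth muscle-like cells held few UMIs of the 10 genes, 331 in the control library and 787 in the library labelled cKO. Of the 10 members, 7 had a mean of at least 10 CPM. Against a background of 18.0% of 8177 genes at least 1.5-fold higher and 7.50% at least 1.5-fold lower in the library labelled cKO, 0 of the 7 members were higher and 1, Fbn1, was lower. The members' median log2 difference was -0.03, beside 0.20 over all genes counted. The Fbn1 call rests on 18 and 20 UMIs, or 18.9 CPM (11.2 to 29.8) and 9.53 CPM (5.82 to 14.7), and the interval of its ratio, 0.254 to 1.01, includes 1.

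Plod2 was the member with the most UMIs in smooth muscle-like cells, 142 in the control library and 432 in the library labelled cKO. Its level was 149 CPM (125 to 176) and 206 CPM (187 to 226), so that the ratio was 1.38 (1.14 to 1.68), the one interval of the 7 that does not include 1. Cells with a Plod2 UMI made up 19.7% and 28.9% of the class, and 9.24% and 15.1% after thinning to 1000 UMIs. In cluster 24, led by Flrt1, Tmem200a and Gata6 with Oxtr and Pgr among the first 10, Plod2 stood at 202 and 252 CPM. In cluster 14, led by Actg2 and other contractile genes, Plod2 stood at 90.7 and 82.2 CPM with an interval that includes 1. Cluster 24 held 52.5% of the class's control UMIs and 72.7% of its cKO UMIs. Without it the log2 difference of Plod2 was -0.13.

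**Figure D4:**
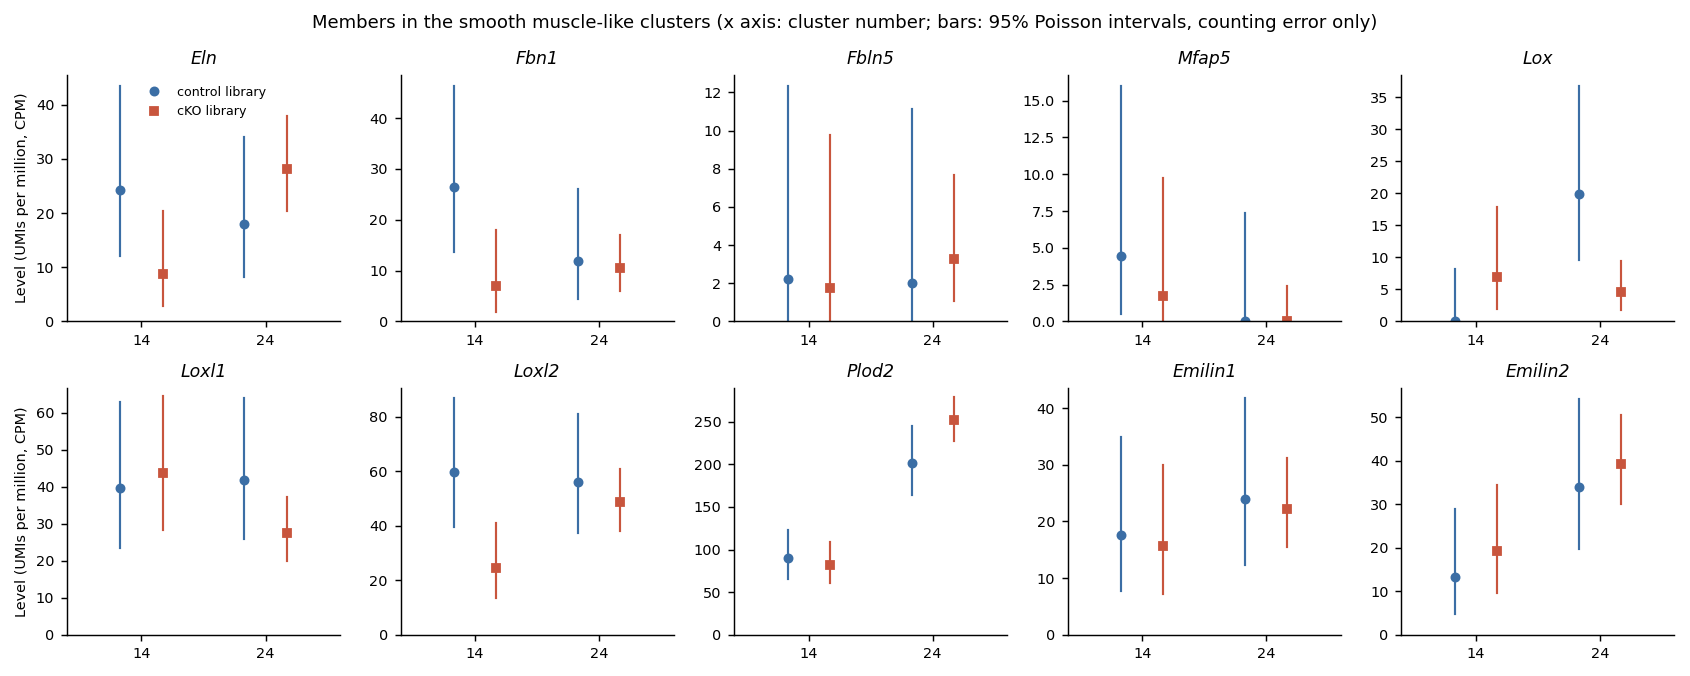
Level of each gene (CPM, linear axis from 0) in the 2 smooth muscle-like clusters, with control as blue circles, cKO as red squares, and bars for 95% Poisson intervals. Most intervals overlap between the libraries; Plod2 is higher in cluster 24 (202 and 252 CPM) than in cluster 14 (90.7 and 82.2 CPM) in both libraries.

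Eln, Emilin1, the oxidases and Emilin2 had fewer UMIs in smooth muscle-like cells. Eln stood at 21 CPM (12.8 to 32.4) and 22.9 CPM (16.9 to 30.3), and Emilin1 at 21 and 20.5 CPM. The Eln levels were 24.3 and 8.74 CPM in cluster 14 (11 and 5 UMIs). They were 18.0 and 28.2 CPM in cluster 24 (9 and 43 UMIs). The ratio interval of Eln included 1 in each cluster. Loxl1 stood at 40.9 and 31.9 CPM, Loxl2 at 57.7 and 42.0 CPM and Emilin2 at 24.1 and 33.8 CPM, each with a ratio interval that includes 1 over the class. By cluster, 3 intervals of members other than Plod2 lay below 1. In cluster 14 these were Fbn1 (26.5 and 6.995 CPM, 12 and 4 UMIs, interval 0.0620 to 0.870) and Loxl2 (59.7 and 24.5 CPM, 27 and 14 UMIs, 0.199 to 0.810). In cluster 24 it was Lox (19.97 and 4.59 CPM, 10 and 7 UMIs, 0.0742 to 0.669). The 10 control UMIs of Lox came from 3 cells, 1 of which held 7 of them, and the interval does not cover such clumping. Fbln5 had 2 and 6 UMIs, Mfap5 2 and 1, and Lox 10 and 11 over the class, under the level at which differences were counted.

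Signs of other RNA stand beside the smooth muscle values. The 6 fibroblast markers summed to 807 CPM in control and 496 CPM in cKO smooth muscle-like cells, 6 of 6 lower and none at 0, and the 6 smooth muscle markers to 7443 and 4604 CPM, 5 of 6 lower. The clusters did not share this fall. Fibroblast markers summed to 1289 and 804 CPM in cluster 14 and to 371 and 380 CPM in cluster 24. Smooth muscle markers summed to 13331 and 9376 CPM in cluster 14 and to 2127 and 2816 CPM in cluster 24. The 4 erythroid markers summed to 35.7 and 619 CPM. In barcodes with 10 to 100 UMIs, which are mostly empty droplets and carry free RNA, Fbn1 stood at 8.66 and 32.3 CPM, Lox at 16.7 and 50.2 CPM, Eln at 13.9 and 26.0 CPM and Plod2 at 42.7 and 87.9 CPM. In smooth muscle-like cells of the library labelled cKO, Fbn1 and Lox were below these levels, Eln had an interval that overlapped that of the empty droplets (17.4 to 37.4 CPM), and Plod2 was above. In the control library Plod2 was above, with an interval clear of that of the empty droplets. The control levels of Fbn1 and Eln were higher and that of Lox lower than in empty droplets. Each of these 3 had an interval that overlapped that of the empty droplets (4.85 to 14.3, 8.88 to 20.6 and 11.2 to 24.1 CPM). Emilin2 stood at 27.1 and 29.6 CPM in empty droplets against 24.1 and 33.8 CPM in smooth muscle-like cells, with overlapping intervals in both libraries. Loxl1 stood at 17.3 and 23.3 CPM and Loxl2 at 20.8 and 34.1 CPM in empty droplets. The smooth muscle intervals of Loxl1, Loxl2 and Emilin1 overlapped those of empty droplets in the library labelled cKO. In the control library they lay above. The part of these signs of other RNA in the results was not tested.

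Outside these classes Emilin2 and Fbln5 were read in further classes. Emilin2 stood at 111 CPM (99.0 to 125) and 107 CPM (90.4 to 125) in macrophage or monocyte-like cells, at 49.7 and 64.8 CPM in dendritic cell-like cells and at 223 and 241 CPM in mast cell-like cells. The intervals of the libraries overlap in each of these classes. Macrophage or monocyte-like cells held the 6 fibroblast markers at 8.31% and 7.32% of the fibroblast level and the other 9 members at 1.86% to 15.6% of theirs, but Emilin2 at 264% and 103%. Fbln5 in lymphatic endothelium-like cells stood at 24 CPM (12.0 to 43.0) and 32.0 CPM (23.4 to 42.9), or 88.4% and 76.5% of its fibroblast level, beside fibroblast markers at 1.62% and 7.44% of theirs. It was seen in 8 of 31 and 25 of 103 of those cells. This class also held the 5 blood endothelium markers at a summed 1683 and 1615 CPM, and its Fbln5 was not divided between lymphatic and blood endothelium.

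Mesothelium-like cells, the lining of the uterine surface, held Lox at 138 and 121 CPM, Plod2 at 326 and 239.3 CPM and Fbln5 at 21.4 and 32.1 CPM in 82 and 31 cells, and their fibroblast markers summed to 9267 and 12252 CPM. Dendritic cell-like cells had more Lox and Plod2 in the library labelled cKO, 10 and 44 UMIs of Lox and 18 and 84 of Plod2, and in the same cells the fibroblast markers summed to 143 and 455 CPM, 6 of 6 higher. Mfap5 in B cell-like cells of that library came from 2 of 28 cells, 1 of which held 35 of the 37 UMIs. Epithelium-like cells had at most 3.71 CPM of any member. In the unnamed cluster 23, led by Dio2, Aldh1a2 and A2m as cluster 10 was in part, 47 cKO cells held Loxl2 at 264 CPM and Eln at 84.9 CPM.

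Across the 42 combinations of cluster and library with at least 20 cells, the genes whose log2 level was most like that of Eln were Rcn3 (Pearson r = 0.94), Col5a1 (0.94) and Col6a3 (0.94), among 9053 genes. For Lox they were Mmp2 (0.93), Cd34 (0.93) and Lum (0.91), and for Plod2 they were Loxl1 (0.94), Pde3a (0.94) and Sparc (0.93). These correlations describe points that share libraries and depth. Over the 13 fibroblast-like and smooth muscle-like combinations alone, Fbn1 and Mfap5 were the most alike pair of members (r = 0.93), and Eln and Emilin1 the least (0.48). Over all 42, Emilin2 had an r between 0.30 and 0.63 with the other 9 members.

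The other genes of the pathway were taken from a list of 39 genes for microfibrils, latent TGF-beta binding proteins, collagen hydroxylases, chaperones and propeptide proteases, of which 38 are among the features. In fibroblast-like cells 26 had a mean of at least 10 CPM, 6 of them at least 1.5-fold higher and 1 at least 1.5-fold lower in the library labelled cKO, beside 4.97% and 2.40% of all genes counted. Their median log2 difference was 0.19. The highest were Fkbp14, a collagen prolyl isomerase of the endoplasmic reticulum (16 and 43.8 CPM), and Mfap4, a microfibril-associated glycoprotein (68.9 and 147 CPM). The lowest were Mfap2, a fibrillin-binding glycoprotein related to Mfap5 (42.7 and 23.9 CPM), and Pcolce, an enhancer of procollagen cleavage (58.7 and 39.6 CPM). Mfap2 and Mfap5, which share a fibrillin-binding role, thus differed in opposite directions. In smooth muscle-like cells 23 of the list were counted, 3 higher and 2 lower, beside 18.0% and 7.50% of all genes counted, with a median of -0.06, so these shares are near the background; the highest were Fbn2 (6.30 and 14.8 CPM) and Crtap (18.9 and 34.3 CPM), and the lowest P3h1 (15.7 and 5.72 CPM) and Ppib (76.6 and 42.0 CPM), on 6 to 88 UMIs each.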

How the data were processed

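Raw UMI counts per gene and barcode were deposited by the authors for every barcode, with no normalization, per the file headers. The headers name Cell Ranger version 4 and the submitters' processing notes Cell Ranger 6.1.1 and build mm10; the 2 versions were not reconciled. Of the 32285 feature identifiers, 32158 (99.6%) occur in GENCODE vM21 (GRCm38), which gave the coordinates.

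A barcode counted as a cell if it had 1000 or more UMIs, 500 or more genes and no more than 20% mitochondrial UMIs. Scrublet marked 4 of 7076 cells (0.0565%), so doublet calling did not work and doublets remain. Counts were scaled to 10000 per cell, and 2000 variable genes without the members and the pathway list, 30 principal components and 15 neighbours entered Leiden clustering at resolution 1.0 (scanpy 1.11.5, igraph 0.11.9). A class name needed 3 of its listed markers in at least 25% of a cluster's cells and at 2 times the median cluster; Ccl21a, a symbol on more than 1 feature, was dropped as a marker. Rebuilt names can differ from the authors' own.

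UMIs were summed per class and library and given as CPM with exact Poisson intervals, ratios with exact conditional intervals and shares of cells with exact binomial ones, all at 95%. Fold calls used CPM + 5 and genes with a mean of at least 10 CPM, in classes of at least 100 and clusters of at least 20 cells per library. All 10 members are named; of the pathway list the 2 highest and 2 lowest in each of the 2 main classes are, and for Eln, Lox and Plod2 the 3 genes most like them. The calculation was tested on simulated data. The members, lists and settings were chosen with earlier results of these data known, and the details of cluster naming, the motifs and the promoters shown were settled after values were seen.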

Additional observations from a re-analysis of the deposited data

Results flagged for a closer look

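A first comparison of the members' differences between cell classes picked out 0 results. The comparison was then made between the fibroblast-like clusters, after values had been seen, and picked out 5 members whose difference between the libraries pointed one way in one cluster and the other way in another, with ratio intervals for counting error on opposite sides of 1. Clusters are not groups of the study, the pair given for each gene is its most extreme pair, and no difference between clusters was tested. The share of all genes that meet the same rule was not counted, so the 5 members are not set apart from other genes by it.

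The log2 difference of Eln was 0.69 in cluster 9 and -2.04 in cluster 19, a gap of 2.74. That of Fbn1 was 1.31 in cluster 9 and -1.01 in cluster 19, a gap of 2.32. For Lox the values were 0.67 in cluster 8 and -1.45 in cluster 16, a gap of 2.12, and the cluster 16 value rests on 12 cKO UMIs. Loxl2 differed by 1.50, with 0.38 in cluster 9 and -1.12 in cluster 16, where 19 cKO UMIs were counted. The gap for Plod2 was 0.993, between 0.60 in cluster 16 and -0.39 in cluster 19. Cluster 19 also differed between the libraries in its fibroblast markers (21834 and 13283 CPM), and cluster 16 is the shallow cluster of the class. Their part in these gaps was not tested.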

How the results depend on the processing

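In fibroblast-like cells Emilin2, Mfap5, Fbn1 and Fbln5 were higher and Emilin1 lower in the library labelled cKO under all 18 settings run, with ranges of 0.53 to 1.51, 0.53 to 1.26, 0.42 to 0.97, 0.30 to 0.81 and -0.49 to -0.10. The members' median of 0.33 became 0.23 under median-of-ratios scaling, -0.0040 as a mean of within-cluster differences, 0.20 with cells thinned to 1000 UMIs, 0.46 without cluster 8 and 0.23 without cluster 9. The count of 3 higher members became 0 as a mean of within-cluster differences and 5 without cluster 8. Signs turned for Plod2 under median-of-ratios scaling (-0.0048), for Eln without clusters drawn over 90% from 1 library, which is cluster 10 (-0.27), in the within-cluster mean (-0.34), with thinned cells (-0.24) and without cluster 9 (-0.088), for Lox in the within-cluster mean (-0.16) and without cluster 8 (-0.16), for Loxl2 in the within-cluster mean (-0.22) and for Loxl1 with thinned cells (0.19). Eln without cluster 8 was 0.94. In smooth muscle-like cells the count of 1 lower member became 2 under median-of-ratios scaling, without a filter on low genes, in the within-cluster mean and with thinned cells, 0 at no more than 10% mitochondrial UMIs and 3 without cluster 24; the count of higher members became 1 with thinned cells, and Plod2 turned to -0.13 without cluster 24. The log2 difference of Eln in smooth muscle-like cells went from 0.10 to -1.09 without cluster 24, on 11 and 5 UMIs. That of Loxl1 went from -0.31 to 0.12. The causes were not tested. The settings that leave out a cluster were chosen after seeing the data. No paired analysis was possible because each group is 1 library and the result comes from no test. Low counts limit the smooth muscle values.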
